A study of Mus musculus with 2 samples.

Results

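HMG proteins are known to compete with linker histone H1 for nucleosomes, and the accessibility of the genes that encode them was followed here. The 9 genes, of 21887 protein-coding genes on chromosomes 1 to 19, X and Y, were taken by name: Hmgb1, Hmgb2, Hmgb3, Hmgn1, Hmgn2, Hmgn3, Hmgn5, Hmga1 and Hmga2. All 9 were found in the RefSeq annotation of mm10. For each gene, every deposited ATAC-seq region overlapping the gene body or the 50 kb on either side was taken, which gave 37 of 32005 regions in control and 17 of 13156 in H1C. A region within 1000 bp of either end of the member gene is called its gene-end region. ATAC-seq uses a transposase that inserts adapters into open DNA. The material was wild-type C57BL/6J bone marrow hematopoietic stem cells of the CD48-CD150+LSK phenotype, the cells that renew all blood lineages. The control cells had received the retrovirus pMSCV, and the H1C cells MSCV-H1C, which adds the linker histone H1C; the age and sex of the mice and the level of H1C reached are not given in the sources used here. Each group is 1 library, so nothing below has a replicate check, no test between conditions was possible, and intervals cover counting error alone.

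Linker histones bind the nucleosome where DNA enters and leaves it and favour compact chromatin. HMG proteins are abundant, fast-moving chromatin proteins of 3 families that bind nucleosomes or linker DNA for short times and weaken H1 binding. HMGB proteins bend DNA with their HMG boxes, HMGN proteins bind the nucleosome core through a nucleosome-binding domain, and HMGA proteins hold the minor groove of AT-rich DNA with AT hooks. Accessibility at a gene is not its expression, and no RNA or protein level was analysed here.

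Of the 9 members, 8 had a gene-end region in control and 6 had one in H1C. Over all protein-coding genes 46.9% had one in control and 33.6% had one in H1C. The 6 kept members were Hmgb1, Hmgb2, Hmgn1, Hmgn2, Hmgn5 and Hmga1. Hmgb3 and Hmgn3 had theirs in control alone, and Hmga2 had none in either library. The kept share was 6 of 8 (75%, exact Clopper-Pearson 95% interval 34.9 to 96.8), close to the 71.0% found over all 10264 genes that had a gene-end region in control. At each of the 6 kept members the highest summit was lower in H1C than in control. After the scaling for depth described below, the H1C summit was lower at 99.3% of all 7288 kept genes. The whole H1C list was also shorter, with 13156 regions against 32005 in control. Whether the libraries differed in quality, such as in the share of reads in open sites, was not tested. The lower summits are therefore not shown to be a loss of accessibility in the cells. In such bulk libraries, fewer cells with an open site and a less open site per cell cannot be told apart.

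**Figure D1:**
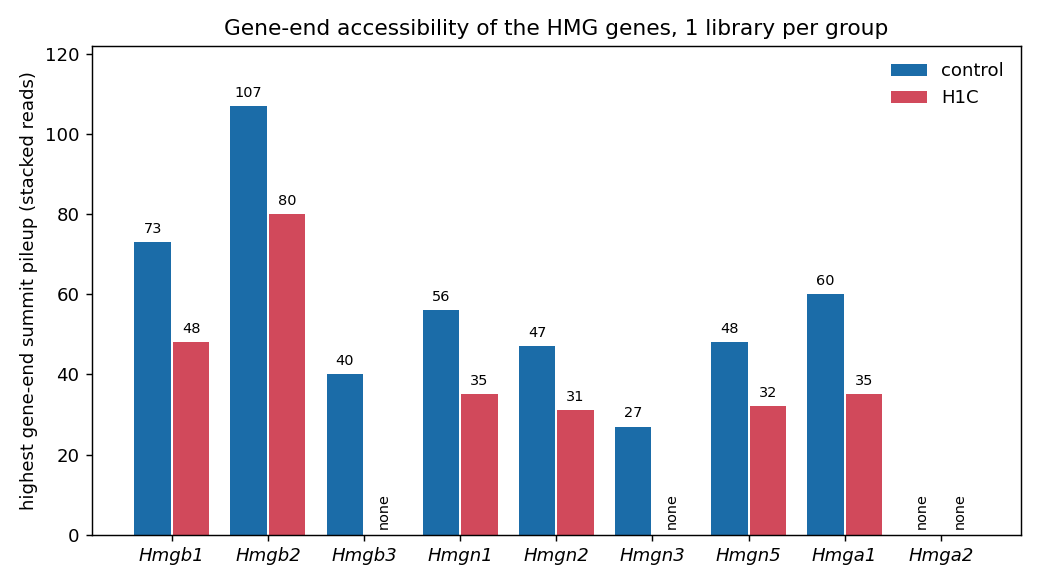
Highest gene-end summit pileup (reads stacked at the summit, as solved from the deposited fold and p-value; y axis) of each member (x axis) in the control library (blue) and the H1C library (red), with "none" where no gene-end region was called. Control bars run from 27 at Hmgn3 to 107 at Hmgb2, and the 6 H1C bars from 31 at Hmgn2 to 80 at Hmgb2, each below its control bar.

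The HMGB genes ranged from the strongest region of the set to one that H1C lacked. The 250 bases before their annotated starts are printed because the regions lie over them; they come from RefSeq (GRCm38.p6) and read 5′ to 3′ on the strand of the gene, with the start just after the last base. Capitals mark a CCAAT box (CCAAT or ATTGG) or a GC box (GGGCGG or CCGCCC).
Hmgb2, chr8:57511593-57511842, plus strand: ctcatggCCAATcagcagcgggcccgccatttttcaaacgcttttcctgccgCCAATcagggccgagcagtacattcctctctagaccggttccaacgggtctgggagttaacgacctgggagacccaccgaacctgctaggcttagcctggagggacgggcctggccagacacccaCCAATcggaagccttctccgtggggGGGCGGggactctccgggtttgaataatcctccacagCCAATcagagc
Hmgb1, first start, chr5:149053058-149053307, minus strand: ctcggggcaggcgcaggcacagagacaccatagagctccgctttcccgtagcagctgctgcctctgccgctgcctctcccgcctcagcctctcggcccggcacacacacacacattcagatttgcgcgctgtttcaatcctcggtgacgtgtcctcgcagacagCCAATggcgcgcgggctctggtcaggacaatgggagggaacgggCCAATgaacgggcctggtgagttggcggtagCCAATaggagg
Hmgb1, second start, chr5:149051617-149051866, minus strand: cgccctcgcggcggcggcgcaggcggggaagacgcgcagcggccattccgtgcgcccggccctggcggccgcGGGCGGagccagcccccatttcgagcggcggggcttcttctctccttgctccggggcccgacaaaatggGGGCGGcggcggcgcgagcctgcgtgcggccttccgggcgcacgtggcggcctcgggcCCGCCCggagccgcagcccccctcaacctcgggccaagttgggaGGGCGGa
Hmgb3, chrX:71555667-71555916, plus strand: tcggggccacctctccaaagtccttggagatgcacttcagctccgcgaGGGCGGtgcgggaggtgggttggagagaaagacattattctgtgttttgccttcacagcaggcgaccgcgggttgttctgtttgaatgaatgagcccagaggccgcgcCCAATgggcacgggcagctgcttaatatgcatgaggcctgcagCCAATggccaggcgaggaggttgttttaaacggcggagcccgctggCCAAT

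These stretches of Hmgb2, Hmgb1 (first start) and Hmgb3 hold 4, 3 and 3 CCAAT boxes, all on the strand of the gene. At least 3 CCAAT boxes on that strand occur in 0.767% of the 32851 starts in the table, and at least 3 on either strand in 2.79%. The box nearest the start begins 11 bases before it in Hmgb2 and Hmgb1 and 5 bases before it in Hmgb3. The second start of Hmgb1 has 0 CCAAT and 4 GC boxes. At least 4 GC boxes occur in 4.09% of starts. The stretches of Hmgn2, Hmga1 and Hmga2 hold 0 CCAAT boxes. The motifs were chosen after the sequences had been seen, so these shares describe the stretches and test nothing. A match describes the letters and is not evidence that a factor bound there.

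Hmgb2 (chromosome 8, 57511843 to 57515999) encodes an HMG-box protein that is abundant in dividing and lymphoid cells. Its single gene-end region spanned 57511459 to 57512086 in control, with a pileup of 107, a fold over local background of 10.4 and a −log10 q of 67.9. In H1C it spanned 57511547 to 57511983, with a pileup of 80, a fold of 9.23 and a −log10 q of 46.7. The summits lay 92 and 93 bp before the start, at bases 159 and 158 of the printed stretch, between the CCAAT boxes that begin at bases 53 and 178. The control pileup was higher than that of 98.2% of the genes with a gene-end region in control, and the H1C pileup higher than that of 99.7% of the genes with one in H1C. The H1C to control ratio, divided by the ratio of genome backgrounds (1.10, H1C over control, where the genome background is the lowest local background of a list and is in proportion to depth), was -0.56 on the log2 scale (95% interval -0.998 to -0.13).

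Hmgb1 (chromosome 5, 149046702 to 149053057), the most abundant HMGB protein in most cells and an alarm signal when released, has 2 annotated starts. The region over the first start ran from 149052728 to 149053279 in control, with a pileup of 73, a fold of 8.13 and a −log10 q of 39.8. In H1C it ran from 149052912 to 149053271, with a pileup of 48, a fold of 7.0 and a −log10 q of 23.0. The log2 ratio was -0.75 (-1.30 to -0.20), and the summits lay 53 and 71 bp before the start, 18 bp apart. The region over the second start, 149051610 to 149052084, had a pileup of 40, a fold of 4.51 and a −log10 q of 12.6 in control, and no region was called there in H1C. It covered all 250 printed bases of the second start. H1C therefore had a region at the first start of Hmgb1 and none at the second, where the control pileup was lower (73 and 40). The GC content of the printed bases was 63.6% and 78.8%. A link between sequence and calling was not tested. Hmgb3, with 3 CCAAT boxes, was not kept, and Hmgn2, with 0, was. At 973 bp from the gene's end, the region at the second start was the member region nearest to the inside of the 1000 bp limit. The nearest outside it, 1338 bp from the end of Hmga1, was also called in control only (pileup 30).

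Hmgb3 (chromosome X, 71555917 to 71560673) is known for its part in the balance of self-renewal and differentiation of blood stem cells. Its region, 71555720 to 71556027, had a pileup of 40, a fold of 8.20 and a −log10 q of 23.1 in control, with the summit 30 bp before the start. It was the only control region in the gene and its 50 kb flanks, and H1C had none in the whole window. Of the 162 genes with a highest control pileup of exactly 40, 109 (67.3%, 59.5 to 74.4) were kept, so at that height a call was kept more often than lost. These genes were matched on pileup alone and not on local background, which was 4.00 at Hmgb3. The lowest pileup in the whole H1C list was 14.

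The HMGN genes had weaker gene-end regions than Hmgb2. Hmgn1 (chromosome 16, 96121588 to 96127725), whose product loosens chromatin fibres, had a region from 96127657 to 96128301 in control, with a pileup of 56, a fold of 6.87 and a −log10 q of 27.0. In H1C the region ran from 96127704 to 96128204, with a pileup of 35, a fold of 5.23 and a −log10 q of 12.7. The log2 ratio was -0.82 (-1.47 to -0.19). The summit moved by 247 bp, from 378 bp before the start in control to 131 bp before it in H1C. The 250 bases before the start hold 2 CCAAT and 4 GC boxes.

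Hmgn2 (chromosome 4, 133964739 to 133967991), the closest relative of Hmgn1, had a pair of gene-end regions in both libraries. The one over the start, 133967829 to 133968591 in control, had a pileup of 42 and a fold of 4.97, against 31 and 4.71 in H1C. That control region also lies 437 bp from an end of Dhdds, which encodes an enzyme of dolichol synthesis, so it is a gene-end region of both genes. The one inside the gene, 133967144 to 133967581, had a pileup of 47 and a fold of 5.45, against 28 and 4.38 in H1C. The higher of the pair was thus the inner one in control and the one at the start in H1C, while the log2 ratios of the pair, -0.58 (-1.30 to 0.12) at the start and -0.89 (-1.62 to -0.18) inside, had overlapping intervals. Between the highest summits the ratio was -0.74 (-1.45 to -0.06).

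Hmgn5 (chromosome X, 109004537 to 109013380) encodes an HMGN protein with a long acidic tail. Its region over the start, 109013312 to 109013673, had a pileup of 48, a fold of 8.63 and a −log10 q of 28.3 in control, and a pileup of 32, a fold of 6.11 and a −log10 q of 13.9 in H1C. The log2 ratio was -0.73 (-1.42 to -0.05). A second control region 303 bp inside the gene had a pileup of 21 and was not called in H1C. Hmgn5, with a control pileup of 48, was kept, and Hmgb3 on the same chromosome, with 40, was not. What set these genes apart was not tested. Hmgn3 (chromosome 9, 83109942 to 83147358) had 3 control regions and 0 in H1C. Its gene-end region, 83146211 to 83146759, lay 599 bp inside the higher-coordinate end, with a pileup of 27, a fold of 5.61 and a −log10 q of 11.3. Of the 166 genes with a control pileup of exactly 27, 41 (24.7%, 18.3 to 32.0) were kept, again without matching on local background. The other regions of Hmgn3 lay inside the gene, 2401 and 3891 bp from the other end, with pileups of 27 and 24.

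At the HMGA genes H1C had no region over the 250 bases before any annotated start. Their sequences are shown because a region was called at the start of Hmga1 in control only and at that of Hmga2 in neither library.
Hmga1, first start, chr17:27556324-27556573, plus strand: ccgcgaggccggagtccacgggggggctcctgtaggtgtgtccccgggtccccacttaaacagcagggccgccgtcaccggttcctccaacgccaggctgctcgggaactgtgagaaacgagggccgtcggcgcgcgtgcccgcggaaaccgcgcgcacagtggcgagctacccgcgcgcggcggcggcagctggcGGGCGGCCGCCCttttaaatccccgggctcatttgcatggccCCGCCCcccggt
Hmga2, chr10:120476470-120476719, minus strand: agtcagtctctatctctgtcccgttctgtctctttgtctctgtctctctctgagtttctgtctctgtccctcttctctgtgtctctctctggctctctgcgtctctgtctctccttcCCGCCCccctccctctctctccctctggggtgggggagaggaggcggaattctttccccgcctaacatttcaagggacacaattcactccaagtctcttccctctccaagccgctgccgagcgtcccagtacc

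Hmga1 (chromosome 17, 27556574 to 27563672), a high-mobility protein abundant in embryonic and proliferating cells, had a pair of control gene-end regions. The one over the start, 27556334 to 27556622, had a pileup of 43 over a high local background of 13.80, which gave a fold of 2.97 and a −log10 q of 7.28. It had no overlapping region in H1C. The upstream one, 27555179 to 27556158, was 980 bp wide with a pileup of 60, a fold of 4.16 and a −log10 q of 17.0. In H1C it ran from 27555251 to 27556067, with a pileup of 35, a fold of 2.95 and a −log10 q of 5.32. The log2 ratio was -0.92 (-1.56 to -0.29), and the summit lay 330 bp farther from the start in H1C. Hmga1 thus counted as kept through its upstream region alone. Within 500 bp of a gene end, which leaves out the H1C region (507 bp away) and the single region of Hmgn3, 5 of 7 members were kept.

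Hmga2 (chromosome 10, 120361268 to 120476469), a fetal stem cell factor that is mostly silent in adult blood, had no gene-end region in either library. Its start stretch has 8 CG pairs against 14 to 39 for the other members and a median of 6 over all starts. It has 1 GC box and 0 CCAAT boxes. In its window control had 3 weak regions, with pileups of 14, 15 and 18. The one 23921 bp beyond the gene, 120500390 to 120500694, was also called in H1C (pileup 18 in control, 20 in H1C), a log2 ratio of 0.01 (-0.98 to 1.01).

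The 6 kept members had a median log2 ratio of -0.74, a ratio of 0.597, with values from -0.92 at Hmga1 to -0.56 at Hmgb2. Over all 7288 genes with a gene-end region in both libraries the median was -0.85 (quartiles -1.04 and -0.66). The interval lay below 0 for 6 of 6 members and for 76.6% of all genes. Scaled instead by the median local background at shared summits (a ratio of 0.872), the member median was -0.41 and the interval lay below 0 for 0 of 6 members and 36.2% of all genes. Without scaling it lay below 0 for 3 of 6 members and 62.3% of all genes. All 6 intervals overlap one another, from the highest lower bound of -0.998 to the lowest upper bound of -0.29. Differences between members were not tested, and no order among them is claimed.

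Set beside genes of similar control pileup, 5 of 6 members lay inside the quartiles of their bin, and all 6 intervals held the bin's median. Hmgb2 lay outside them: at control pileups above 80 the median over 1343 genes was -0.91 (quartiles -1.06 and -0.78), and the ratio of Hmgb2 was higher than 96.6% of these. Its interval reached down to -0.998, past that median. By the distance between log2 pileups in both libraries, the genes most like Hmgb2 among 7282 were Ccdc151 and Prkcsh, with the same pileups of 106 and 78, followed by Tom1l2 and Drc3, with the same pileups of 111 and 81. With 2 libraries this measure compares only 2 numbers per gene.

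**Figure D2:**
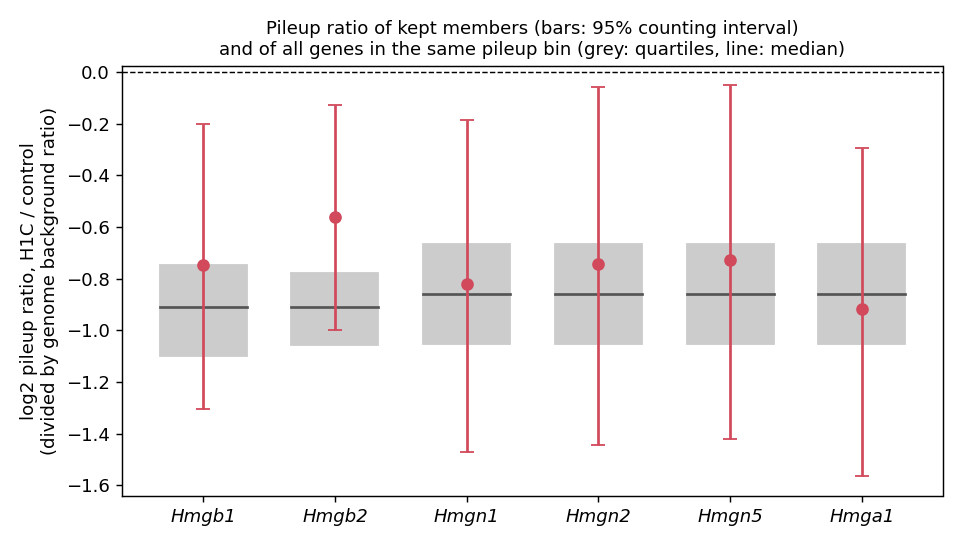
Log2 ratio of H1C to control pileup, divided by the genome background ratio (y axis), for the 6 kept members (x axis), with exact conditional 95% counting intervals. Grey boxes and lines give the quartiles and median of all genes in the same bin of control pileup; Hmgb2 at -0.56 is the one point outside its box.

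By the highest gene-end pileup in control, the members kept lay above those not kept. By single region this order did not hold: the region at the start of Hmga1 (43) was not shared and that of Hmgn2 (42) was. The 6 kept members had control pileups of 47 to 107, and the pair that was not kept had 40 and 27. Over all genes the kept share rose from 18.9% at pileups up to 30 to 51.6%, 86.6%, 98.2% and 99.3% in the steps up to 40, 60, 80 and above. Of the member genes, 4 fell in the step above 40 and up to 60 and all 4 were kept.

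**Figure D3:**
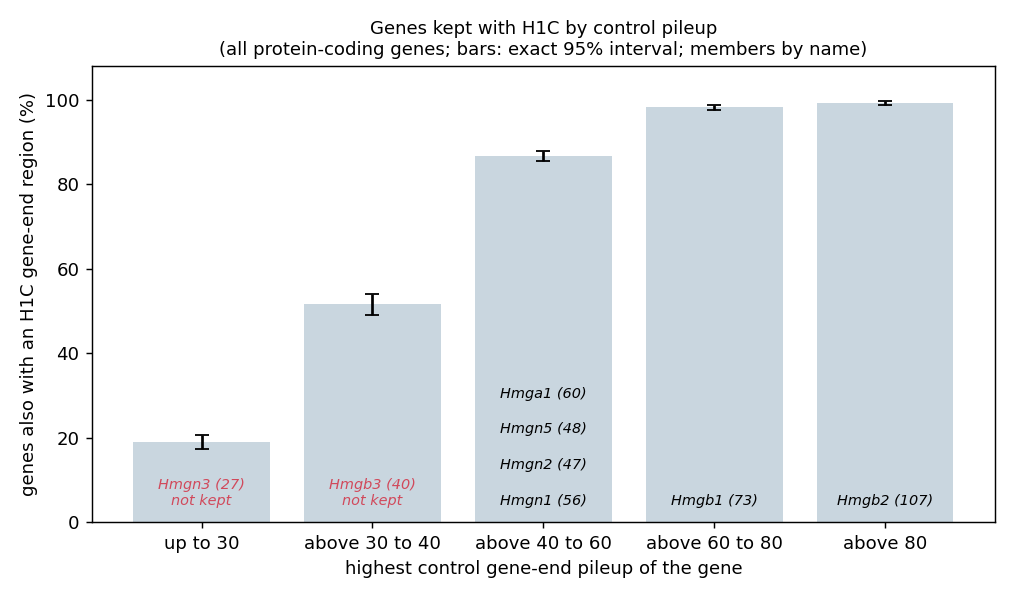
Share of genes called at an end in control that were called there in H1C too (y axis, percent, with exact 95% intervals), by the highest control pileup of the gene (x axis), over all protein-coding genes. The members are written in their bin with their control pileup; Hmgn3 and Hmgb3, in the lowest bins, were not kept.

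Counted by region, 7 of the 12 control gene-end regions of the members were overlapped by an H1C region (58.3%, 27.7 to 84.8), against 62.9% of all 10147 control gene-end regions. The 5 that were not were those at the second start of Hmgb1, at the starts of Hmgb3 and Hmga1, and inside Hmgn3 and Hmgn5. All 7 H1C gene-end regions of the members overlapped a control one. Between the overlapping pairs the summits differed by 1 to 330 bp with a median of 65, against a median of 25 (quartiles 9 and 57) over 6385 pairs. Shifts over 200 bp were seen in 2 of 7 pairs, at Hmgn1 and Hmga1, and in 6.25% of all pairs. The member share rests on few pairs. At Hmgn1 and Hmga1 the log2 ratio compares summits 247 and 330 bp apart.

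Regions within 1000 bp of the ends of neighbouring genes were all kept. There were 5 in control, with pileups of 46 to 83, and all 5 overlapped an H1C region (exact 95% interval 47.8 to 100). Of all 3959 control gene-end regions in that range of pileups 93.2% did so. The strongest lay at Sap30, which encodes a subunit of a histone deacetylase complex, 23685 bp from Hmgb2, with pileups of 83 and 64 and a log2 ratio of -0.52 (-1.01 to -0.03). Sap30 and Hmgb2 were the only regions of that window in either library, and their ratios were the highest among the gene-end regions of the 9 windows, with intervals that overlapped those of the others. Get1, which encodes a receptor for tail-anchored proteins, lies in the window of Hmgn1 and had pileups of 72 and 42 (-0.92, -1.50 to -0.35). Brwd1, a bromodomain gene in the same window, had 46 and 27 (-0.91, -1.65 to -0.19). In that window further control regions lay just outside the limit, 1049 bp from Brwd1 (pileup 48) and 1044 bp from Lca5l (pileup 16). Neither overlapped an H1C region. AI413582 beside Hmga1 had 79 and 47 (-0.89, -1.44 to -0.35), and Dhdds beside Hmgn2 had 59 and 41 (-0.67, -1.28 to -0.07).

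Away from gene ends the members' windows kept 4 of 20 control regions (20.0%, 5.73 to 43.7), close to the 20.8% of all 18388 such regions within 50 kb of protein-coding genes. The 4 were 1 near Hmgb1, 2 near Hmgn1 and 1 near Hmga2, all with control pileups of 18 to 22. The 4 control regions with pileups above 30 were not kept, against 47.3% kept of all 5292 such regions. They were the one 21464 bp from Hmga1 (chromosome 17, 27534772 to 27535110, pileup 38, fold 7.59), another 9028 bp from Hmga1 (pileup 36), one 39673 bp from Hmgb1 (pileup 31) and one 1049 bp from Brwd1 (pileup 48). Of the 16 with pileups up to 30, 4 were kept (25%, 7.27 to 52.4), against 10.1% of all 13096. Both differences from the background rest on a handful of regions, and the 95% interval of 0 of 4 reaches 60.2%.

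The 2 kept regions near Hmgn1 had more reads in H1C than in control. The one 7337 bp from the gene, 96114050 to 96114251, had a pileup of 21 in control and 27 in H1C, a log2 ratio of 0.22 (-0.66 to 1.12). The one 5015 bp from it, 96132740 to 96133054, had 22 and 27 (0.15, -0.71 to 1.04). Both intervals hold 0. Among all 1325 shared regions of this class with control pileups up to 30, 31.0% had a ratio above 0, and being called in H1C at all favours a high ratio there.

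In H1C, 16 of the 17 regions in the members' windows overlapped a control region (94.1%, 71.3 to 99.9), against 87.3% of all 11919 H1C regions in gene windows. The exception lay 29840 bp from Hmgb1 (chromosome 5, 149082897 to 149083203), with a pileup of 23 and a fold of 3.99. A weak control region with a pileup of 17 lay 539 bp away from it.

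**Figure D4:**
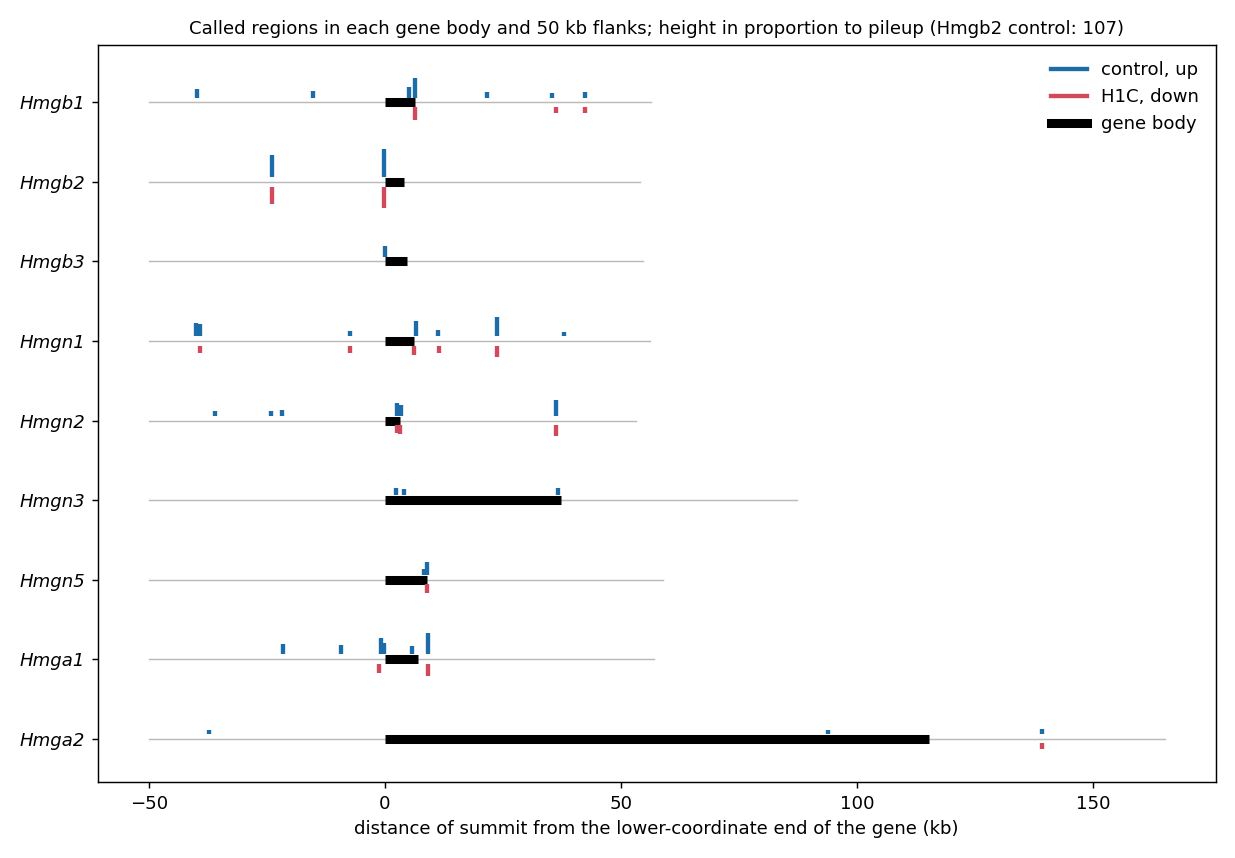
Called regions in the gene body (black) and 50 kb flanks of each member (rows), by the distance of the summit from the lower-coordinate end of the gene (x axis, kb), with control bars (blue) upward and H1C bars (red) downward and bar height in proportion to pileup. Hmgb3 and Hmgn3 have no red bar, and Hmgb2 has the highest bars of both colours, 107 and 80.

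Related genes were counted in the same way. Of 24 other HMG-box genes 18 had a control gene-end region and 14 of them were kept, with a median log2 ratio of -0.90 and all 14 ratios below 0. Cic, a repressor, had pileups of 117 and 67, and Hbp1, a cell cycle inhibitor, 111 and 68. Smarce1, a subunit of the SWI/SNF remodeller (pileup 28), and Tcf7l1 (24) had one in control only. Of 7 linker histone genes 6 had a control region and 5 were kept, with a median of -0.65. H1f2, the gene of H1C itself, had 72 and 43, H1f4 had 58 and 44, and H1f1 (33) was in control only. Whether reads from the H1C sequence carried by MSCV-H1C were placed at H1f2 is not known. Of 8 other proteins that bind near the H1 site or displace H1, 6 had a control region and all 6 were kept, with a median of -0.85. Ptma, which encodes prothymosin alpha, a chaperone of H1, had 113 and 62. Nucks1, which encodes a nuclear phosphoprotein, had 92 and 41. Of all protein-coding genes 46.9% had a control region. Of these 71.0% were kept, with a median ratio of -0.85 and 99.3% of the ratios below 0. The lists were not matched to all genes on control pileup.

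The labelled cell type was checked at marker genes. Of 11 stem cell markers 8 had a control gene-end region, with pileups of 18 to 57. Of these 1, Runx1 (57 and 26), was kept (12.5%, against 71.0% of all genes). The 7 not kept had low control pileups, from 18 to 32. Over all genes the kept share was 18.9% at pileups up to 30 and 51.6% above 30 and up to 40. Procr, Mecom and Gata2 had none in either library. Over all protein-coding genes 46.9% had a control gene-end region. Of the markers of other cells, control regions were called at 4 of 5 T and B lymphoid, 2 of 5 myeloid, 1 of 4 erythroid and 4 of 4 endothelial or epithelial genes, and 2 were kept, both lymphoid. These were Cd3d, with pileups of 69 and 35, and Cd79a, with 63 and 27, each higher in both libraries than any stem cell marker. Cd79a exceeded Runx1 by few reads only (63 and 57 in control, 27 and 26 in H1C). Among those called in control only, Lyz2, Itgam, Epor, Cdh1 and Kdr had low pileups, from 18 to 22. Cd3e had 24 and Cd79b 41. By this count the regions at the marker genes did not single out stem cells in either library. Whether each region lies at the marker's own start or at a neighbouring gene was not checked. The part of other cells in the members' values was not tested.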

How the data were processed

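ATAC-seq was deposited for 1 control and 1 H1C library, grouped by the treatment label. Per the submitters' processing notes, MACS2, Picard, featureCounts, Bowtie2 2.2.9 and Trim Galore 0.4.4 were used with build mm10; settings, duplicate handling and any shift to the cut site are not given in the sources used here, and each could alter pileups and summits. Regions were deposited per sample. The deposited fold is a ratio of summit pileup to local background, after adding 1 to both; the −log10 p, the −log10 q and the score were deposited by the authors from their peak caller.

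Pileup and background were solved from fold and Poisson −log10 p, accepting whole pileups within a relative tolerance of 0.0001 (31843 of 31843 control and 13012 of 13012 H1C regions on chromosomes 1 to 19, X and Y). The solver and the intervals were tested on simulated data. A region was shared at an overlap of at least 1 bp. Ratios have exact conditional binomial 95% intervals. Amplified fragments are not independent molecules, so intervals may be too narrow. How reads from the pseudogene copies of HMG genes were placed is not known.

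Gene positions, strands and starts came from RefSeq tables of GRCm38.p6; 8 of 9 members matched the table of starts, and Hmgn3 did not. Members and lists were chosen with earlier results of these data known, and the motifs after the sequences had been seen. Of the motifs, the TATA box (TATAAA or TTTATA) was in 0 and the ETS core (CGGAAG or CTTCCG) in 3 of the 10 member stretches, against 12.4% and 13.6% of all starts. Motif matches on both strands were counted in the 250 bases before each start. All 9 members were named, and neighbours and related genes by highest fold or pileup. Scripts ran under Python 3.11.15 with scipy 1.17.1, pandas 2.3.3, numpy 2.4.6 and matplotlib 3.10.9. A listed marker is not reported here.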

Additional observations from a re-analysis of the deposited data

How the results depend on the processing

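Of 36 alternatives for 11 results, 32 stayed inside the interval of the value (for the median ratio, the members' quartiles) and 4 moved. Of the log2 ratios 0 changed sign, while a share cannot change sign. Staying inside says little where the interval is wide. It also does not mean that a ratio's own interval still left out 0: scaled by local background, it lay below 0 for 0 of 6 members. The control regions of the members' windows other than their own gene-end regions were shared at 36.0% (9 of 25), and at 62.5% (5 of 8) when lists of equal length were compared, where fewer weak control regions enter. The H1C regions shared rose from 94.1% to 100% (13 of 13) with flanks of 25 kb, which leave out the single unshared one. The median log2 ratio of the kept members, -0.74, was -0.41 scaled by local background and -0.60 without scaling; the scale sets the size of every ratio, and all genes moved with it, from -0.85 to -0.51 and -0.71. The share of members kept was 71.4% to 75% under the 5 alternatives. Summits within 200 bp lowered the shared gene-end regions from 7 to 5 of 12. No paired analysis was possible because there was 1 library per group. Counts of 12 or fewer gene-end regions leave wide intervals, and a region not called is not shown to be closed.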
